A study of Rattus norvegicus with 4 samples.

Results

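The 9 enzymes followed here were the serine synthesis enzymes Phgdh, Psat1 and Psph, and the folate-dependent one-carbon enzymes Shmt1, Shmt2, Mthfd1, Mthfd1l, Mthfd2 and Aldh1l2. They were taken by gene symbol from the 23360 symbols in the deposited tables. All 9 symbols were present and 8 of them passed the expression filter, a mean of at least 1 TPM (transcript abundance scaled to a fixed total per sample). Messenger RNA was measured in INS-1 832/3 cells, an insulin-secreting rat insulinoma line that carries the human insulin gene. The 2 samples of the 2D group came from standard monolayer cultures, and the 2 samples of the 3D group from cells bioprinted as grids in GelXA LAMININK 411 hydrogel and crosslinked with ultraviolet light. Both groups were grown in RPMI-1640 medium and harvested after 5 days at passage 3. Printing, hydrogel, light and 3D growth were applied together and cannot be told apart.

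Serine is made from the glycolytic intermediate 3-phosphoglycerate in 3 steps, catalysed in turn by Phgdh, Psat1 and Psph. Serine then donates a carbon unit to tetrahydrofolate through the serine hydroxymethyltransferases, cytosolic Shmt1 and mitochondrial Shmt2. The folate-bound unit is oxidised to formate in mitochondria and used in the cytosol for purines, thymidylate and methionine, and demand for it is known to be high in dividing cells.

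In 3D culture, 6 of the 8 tested enzymes fell in limma and none rose. The fold changes of the other two were also below 0, that of Aldh1l2 by less than its error. Psph and cytosolic Mthfd1 had the lowest fold changes, at 66.2% and 63.2% of their monolayer means. The mitochondrial enzymes Mthfd1l and Aldh1l2 did not pass the test, and Phgdh was listed at 0 in 3 of the 4 samples. The test was limma on log2(TPM + 1) over 11960 genes with Benjamini-Hochberg adjustment, and a gene was called at an adjusted p below 0.05. By this rule 38.0% of all genes tested were called, 19.5% lower and 18.5% higher in 3D. The median log2 fold change of the 8 enzymes was -0.30, beside -0.0031 for all genes tested. Both 3D samples lay below both monolayer samples for 7 of the 8 enzymes, and for 33.2% of all genes tested. These are relative abundances in a bulk culture, so that fewer cells expressing an enzyme and less of its RNA per cell cannot be told apart.

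**Figure D1:**
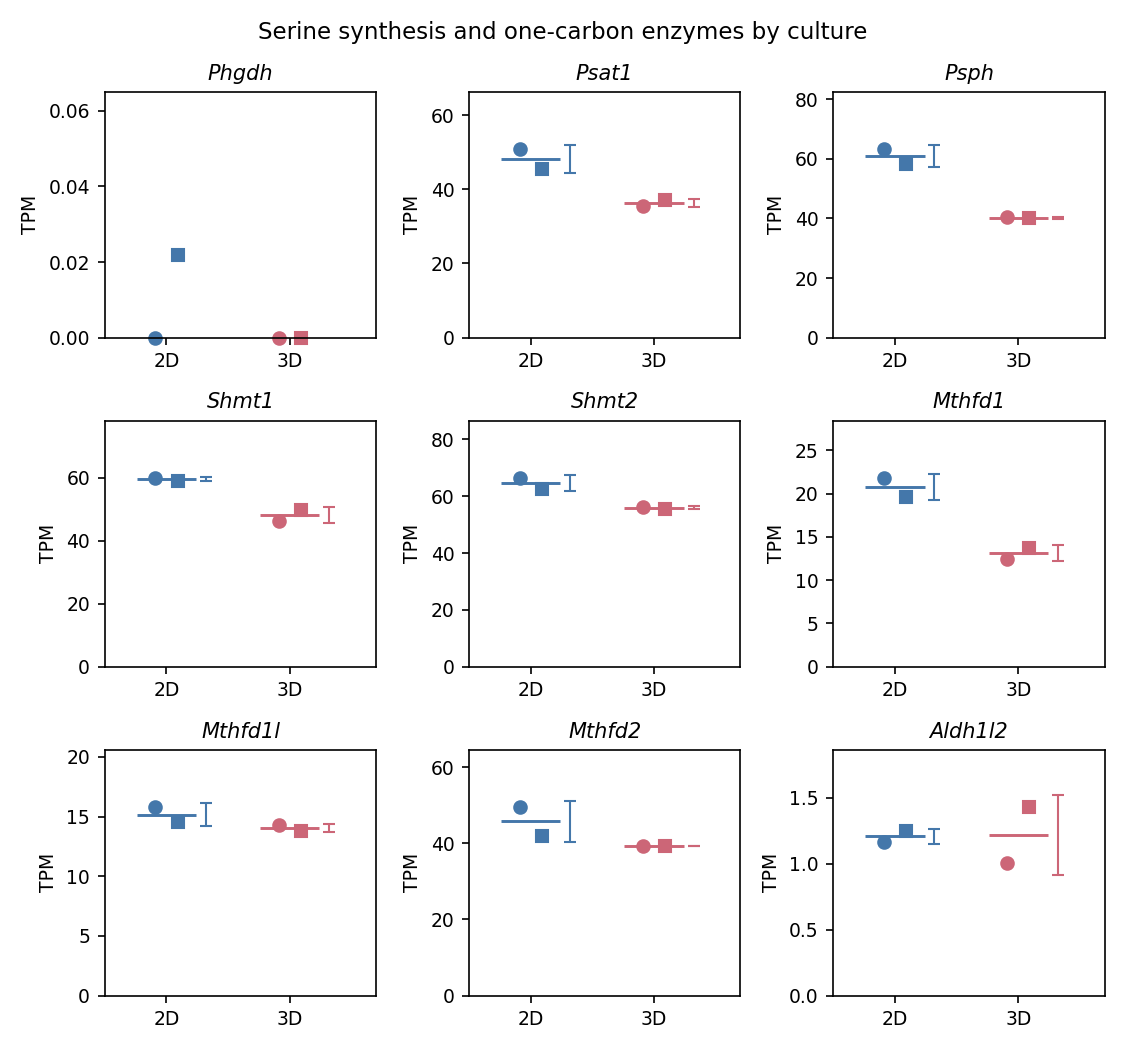
TPM of each enzyme (vertical axes from 0, each panel with its own scale) in the 2D monolayer (blue) and 3D bioprinted (red) samples. Circles are replicate 1, squares replicate 2, horizontal lines group means and the bars beside them the SD (n = 2). Phgdh, listed at 0 in 3 samples, has points alone. The 3D points lie below the 2D points for 7 enzymes and overlap them for Aldh1l2.

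The calls depended on both 3D samples. Without 3D replicate 1, none of the 8 enzymes and 136 of all genes were called by limma, although 5 enzymes had an unadjusted p below 0.05. Without 3D replicate 2, 2 enzymes (Psph and Mthfd1) and 1037 genes were called. The counts of the pathway lists given further on, leaving out the markers of other cell types, were also 0 without 3D replicate 1. The fold changes of the 6 called enzymes stayed negative whichever sample was left out. With 2 samples against 2, exact permutation of any 1 gene reaches a two-sided p of 0.33 at best. The calls therefore lean on variance that limma borrows from all genes.

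The serine synthesis steps stood at very different levels. Phgdh, phosphoglycerate dehydrogenase, catalyses the first and committed step. It was listed at 0 TPM in monolayer replicate 1 and in both 3D samples, and at 0.0220 TPM in monolayer replicate 2. Its only transcript in the tables is ENSRNOT00000056173.2. Of 19 housekeeping genes found by symbol, 0 were at 0 in all 4 samples and 0 had a mean TPM below 1. Gapdh was also looked for, but its symbol was not present. Of 71 ribosomal protein symbols, most of them genes that every cell uses, 5 were at 0 in all 4 samples. These were Rpl13, Rpl39, Rpl39l, Rpl9 and Rps29, in a check made after the values were seen. Whether the Phgdh value is a failed estimate was not tested. No fold change is given for Phgdh.

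The promoters of the 3 serine synthesis genes are shown because the first gene of the pathway was listed near 0 while the other two stood among the more abundant of the 9. They come from RefSeq (rat build GRCr8, which is not the rn4 reference that the paper names for the quantification). Each holds 250 bases before and 50 bases after the annotated start, read 5′ to 3′ on the gene's strand. Capitals mark CG dinucleotides, the sites of DNA methylation. The Phgdh window lies at chr2:188624740-188625039 (minus strand), Psat1 at chr1:222645359-222645658 (minus strand) and Psph at chr12:32526841-32527140 (plus strand).
Phgdh: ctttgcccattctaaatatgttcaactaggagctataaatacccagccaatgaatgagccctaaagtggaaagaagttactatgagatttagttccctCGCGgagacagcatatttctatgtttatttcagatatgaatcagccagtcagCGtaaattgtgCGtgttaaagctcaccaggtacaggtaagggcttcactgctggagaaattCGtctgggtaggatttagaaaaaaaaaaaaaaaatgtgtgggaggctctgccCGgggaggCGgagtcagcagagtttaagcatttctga
Psat1: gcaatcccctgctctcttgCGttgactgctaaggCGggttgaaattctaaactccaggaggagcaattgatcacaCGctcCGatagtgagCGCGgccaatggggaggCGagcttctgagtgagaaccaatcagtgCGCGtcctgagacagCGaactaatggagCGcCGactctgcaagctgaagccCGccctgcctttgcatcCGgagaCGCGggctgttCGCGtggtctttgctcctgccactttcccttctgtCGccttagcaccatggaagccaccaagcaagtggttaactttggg
Psph: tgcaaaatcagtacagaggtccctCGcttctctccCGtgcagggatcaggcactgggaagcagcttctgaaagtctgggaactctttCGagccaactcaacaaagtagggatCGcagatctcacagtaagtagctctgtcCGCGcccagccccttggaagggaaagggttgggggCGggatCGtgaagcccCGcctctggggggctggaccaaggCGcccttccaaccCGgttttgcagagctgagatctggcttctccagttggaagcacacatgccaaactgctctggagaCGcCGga

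The Phgdh window held 7 CG dinucleotides, equal to the median of 7 over all 33469 RefSeq promoters of this length, the Psph window 13 and the Psat1 window 19. Fewer CG dinucleotides than in Phgdh were found in 48.6% of all promoters, and fewer than in Psat1 in 74.3%. Promoters of 7 of the 9 enzymes were matched by symbol, and 3 motifs were searched in them on both strands, none of which contains another. TGATGNAA, an amino acid response element, was in none of the 7 and in 3.98% of all promoters. CACGTG, the E-box that Myc binds, was in Shmt1 alone, at 2 positions, and in 6.42% of all promoters. CCAAT, the box bound by NF-Y, was in Phgdh (1 position), Psat1 (2), Shmt1 (1) and Mthfd2 (3), and in 37.5% of all promoters. No measurement of binding or methylation was made, so these matches describe the sequence only.

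Psat1, phosphoserine aminotransferase, carries out the second step. It was at 51.0 and 45.6 TPM in the monolayer samples and at 35.6 and 37.2 TPM in the 3D samples. Both 3D samples lay below both monolayer samples. The mean fell from 48.3 ± 3.79 to 36.4 ± 1.11 TPM (SD, n = 2). On the log2 scale this was -0.44 (standard error 0.060, adjusted p = 0.0069 in limma). Of its 3 transcripts, ENSRNOT00000082442.1 carried 83.4% to 93.9% of the gene's TPM in a sample. That transcript stood at 43.0 ± 2.37 TPM in monolayer and at 32.2 ± 1.71 TPM in 3D (SD, n = 2), while the minor ENSRNOT00000018763.6, at 2.19 to 6.25 TPM, overlapped between the groups.

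Psph, phosphoserine phosphatase, releases free serine in the last step. It was at 63.4 and 58.2 TPM in the monolayer cultures and at 40.5 and 40.0 TPM in the 3D cultures. The 3D samples differed by under 1 TPM and lay well below both monolayer samples. The mean fell from 60.8 ± 3.68 to 40.3 ± 0.373 TPM (SD, n = 2). On the log2 scale this was -0.62 (standard error 0.056, adjusted p = 0.0041 in limma). Both of its transcripts were lower in both 3D samples, and the main one, ENSRNOT00000001228.7, held 97.1% to 97.5% of the total. Within each sample the ratio of Psph to Psat1 was 1.24 and 1.28 in monolayer and 1.14 and 1.08 in 3D. Psph RNA was thus lower in 3D also in relation to Psat1 RNA, a difference that was not tested.

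**Figure D2:**
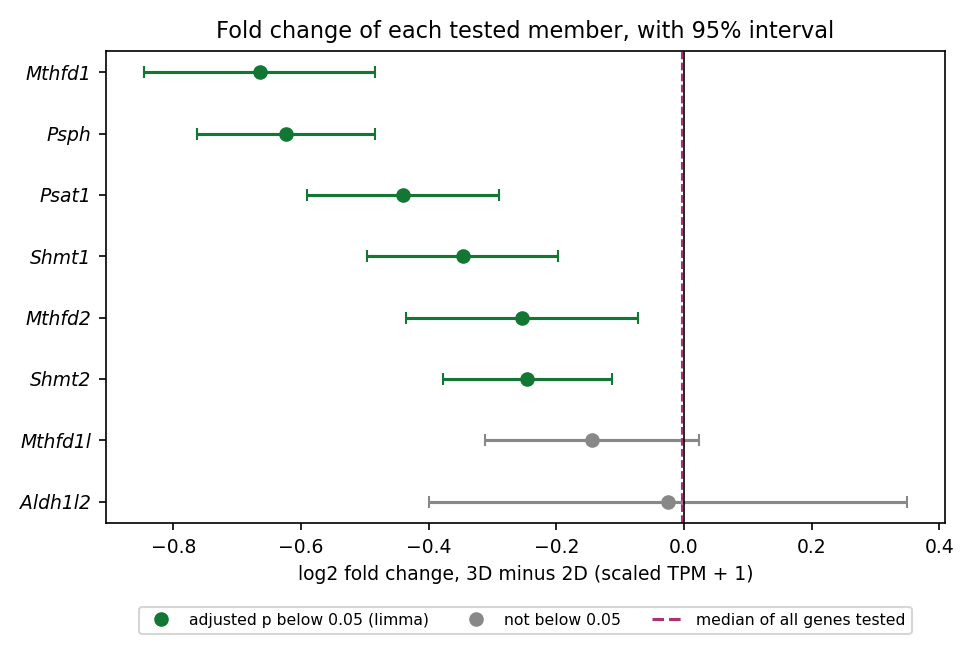
Log2 fold change of the 8 tested enzymes, 3D minus 2D, on scaled TPM + 1 (horizontal axis), with 95% intervals from limma. Green points had an adjusted p below 0.05, and the dashed line is the median of all genes tested, -0.0031. Mthfd1 (-0.66) and Psph (-0.62) lie farthest below 0, and the intervals of Mthfd1l and Aldh1l2 cross it.

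Both serine hydroxymethyltransferases, which convert serine to glycine while loading folate, fell. Cytosolic Shmt1 was at 60.1 and 59.1 TPM in the monolayer cultures and at 46.4 and 49.9 TPM in the 3D cultures. Mitochondrial Shmt2, the most abundant of the 9 in each group by mean TPM, was at 66.5 and 62.6 TPM in the monolayer cultures and at 56.3 and 55.6 TPM in the 3D cultures. Neither gene overlapped between the groups. Shmt1 had a log2 fold change of -0.35 (95% interval -0.50 to -0.20, adjusted p = 0.011 in limma) and Shmt2 one of -0.25 (95% interval -0.38 to -0.11, adjusted p = 0.020 in limma). These intervals overlap, and the difference between the fold changes of the isoenzymes was not tested.

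Mthfd1, the trifunctional cytosolic enzyme that interconverts the folate-bound units, had the lowest fold change of the 8 tested. It was at 21.8 and 19.7 TPM in the monolayer cultures and at 12.5 and 13.7 TPM in the 3D cultures. The highest 3D value was well under the lowest monolayer value. The mean fell from 20.8 ± 1.54 to 13.1 ± 0.892 TPM (SD, n = 2). On the log2 scale this was -0.66 (standard error 0.073, adjusted p = 0.0048 in limma). Of all genes tested, 1.89% had a lower fold change. Among 7616 tested genes with a mean of at least 10 TPM, the patterns nearest to that of Mthfd1 were those of Ckap2, Qdpr and Tmem97. The measure was the Euclidean distance of centred log2 values over the 4 samples (0.029, 0.035 and 0.045), and over so few samples it reflects little more than a similar fold change, -0.69, -0.66 and -0.62 respectively. Ckap2 encodes a spindle-associated protein, Qdpr dihydropteridine reductase and Tmem97 the sigma-2 receptor.

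Of the other 3 mitochondrial enzymes 1 was called. Mthfd2, the dehydrogenase and cyclohydrolase that is abundant in embryonic and tumour cells, was at 49.6 and 42.0 TPM in the monolayer cultures and at 39.4 and 39.2 TPM in the 3D cultures. The monolayer samples lay apart from each other, and replicate 2 was close to the 3D samples. The fitted difference of log2 values was -0.25 (standard error 0.073, adjusted p = 0.042 in limma). This call was lost in 7 of 14 other settings, among them no scaling between samples (adjusted p = 0.12 in limma) and no expression filter (adjusted p = 0.072 in limma), over a range of adjusted p from 0.026 to 0.19 in limma.

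Mthfd1l, the mitochondrial synthetase that releases formate, was at 15.8 and 14.5 TPM in the monolayer cultures and at 14.3 and 13.8 TPM in the 3D cultures. The groups did not overlap, but the gap between them was smaller than the spread within the monolayer group. The log2 fold change of -0.14 did not pass the test (95% interval -0.31 to 0.024, adjusted p = 0.14 in limma), nor did it in any of the 14 other settings. Aldh1l2, which oxidises formyl-folate to carbon dioxide in mitochondria and yields NADPH, lay near the filter. It was at 1.17 and 1.25 TPM in the monolayer cultures and at 1.00 and 1.43 TPM in the 3D cultures. The 3D samples lay on either side of the monolayer samples. Its log2 fold change of -0.025 had a 95% interval of -0.40 to 0.35 and an adjusted p of 0.91 in limma, and it was positive without 3D replicate 1 (0.11) and without 2D replicate 2 (0.020).

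Ordered by mean TPM, which is normalised for transcript length, the monolayer cells had Shmt2 (64.5), Psph (60.8), Shmt1 (59.6), Psat1 (48.3), Mthfd2 (45.8), Mthfd1 (20.8), Mthfd1l (15.2) and Aldh1l2 (1.21), with Phgdh last. Within each monolayer sample Shmt2 lay above Psph, and Psat1 above Mthfd2, while Psph and Shmt1 changed places between the samples. In 3D the order was Shmt2 (55.9), Shmt1 (48.1), Psph (40.3), Mthfd2 (39.3), Psat1 (36.4), Mthfd1l (14.0), Mthfd1 (13.1) and Aldh1l2 (1.22). Mthfd1 lay above Mthfd1l in both monolayer samples and below it in both 3D samples.

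Ratios of isoenzymes within a sample do not depend on the scaling between samples. Mthfd1l over Mthfd1 was 0.725 and 0.738 in monolayer and 1.14 and 1.00 in 3D. Mthfd2 over Mthfd1 was 2.27 and 2.13 in monolayer and 3.15 and 2.85 in 3D. In both ratios the 3D samples lay above the monolayer samples. Shmt2 over Shmt1 was 1.11 and 1.06 in monolayer and 1.21 and 1.12 in 3D, a gap of less than the spread within either group. Between the mitochondrial pair, Mthfd2 over Mthfd1l was 3.13 and 2.89 in monolayer and 2.76 and 2.84 in 3D, again a gap smaller than the spread within a group. The 4 mitochondrial enzymes summed to 1.63 and 1.53 times the 2 cytosolic enzymes in monolayer and 1.88 and 1.73 times in 3D, with means of 1.58 ± 0.0700 and 1.81 ± 0.109 (SD, n = 2). None of these ratios overlapped between the groups, and with 2 samples against 2 no exact permutation test of them can fall below a two-sided p of 0.33.

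**Figure D3:**
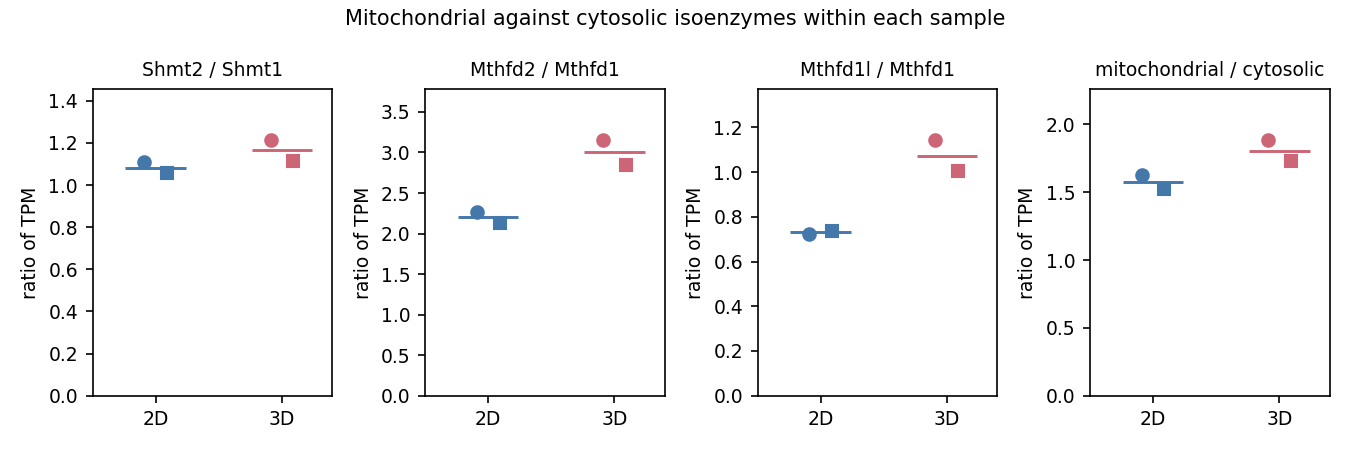
Ratio of TPM of mitochondrial over cytosolic enzymes within each sample (vertical axes from 0), for the 2D (blue) and 3D (red) samples. Circles are replicate 1, squares replicate 2 and lines the group means. The last panel sums Shmt2, Mthfd2, Mthfd1l and Aldh1l2 over Shmt1 and Mthfd1. Each 3D point lies above both 2D points, by least for Shmt2 over Shmt1.

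The other genes of folate metabolism did not move one way. Of 15 genes of the folate cycle and folate transport, 11 were tested, 3 fell, 2 rose and 6 were not called. The median log2 fold change was -0.046. Beside this count, and those of the lists below, 19.5% of all genes tested were called lower and 18.5% higher. Thymidylate synthase (Tyms), which uses a folate-bound unit to make thymidylate, fell from 35.3 ± 6.76 to 27.0 ± 1.61 TPM (SD, n = 2). Fpgs, which adds the glutamate tail that keeps folate in the cell, rose from 13.6 ± 0.137 to 17.7 ± 1.25 TPM. Also called, and named after their values were seen, were Ggh, which removes that tail and fell from 79.5 ± 4.31 to 67.9 ± 0.582 TPM, and the reduced folate carrier Slc19a1, which rose from 6.11 ± 0.121 to 8.40 ± 0.615 TPM. Their adjusted p in limma was 0.038 for Tyms, 0.028 for Fpgs, 0.041 for Ggh and 0.026 for Slc19a1. With either 3D sample left out none of the list was called. Without 2D replicate 1 the count was 2 lower and 0 higher, and with no expression filter 1 lower and 0 higher. It was 1 lower and 2 higher both without the variance trend and with the most abundant transcript per symbol.

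Related enzymes of the pathway were near or at 0. Mthfd2l, the second mitochondrial dehydrogenase, was at 0.0159 and 0.0412 TPM in the monolayer cultures and at 0 and 0.0187 TPM in the 3D cultures, and Aldh1l1, the cytosolic counterpart of Aldh1l2, was listed at 0 in all 4 samples. Gldc, which splits glycine in the glycine cleavage system, was listed at 0 in 3 samples and at 0.0128 TPM in 3D replicate 2. Of the 3 tested genes of that system 1 fell, the lipoyl carrier Gcsh, from 107 ± 14.0 to 81.0 ± 2.07 TPM (SD, n = 2, adjusted p = 0.032 in limma). Dld stood at 29.1 ± 1.67 and 27.5 ± 1.16 TPM without passing. Mthfd2l, Aldh1l1 and Gldc were chosen for mention after their values were seen.

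None of the 8 tested genes for serine and glycine transport and use was called by limma, of 14 listed, and 0 had an unadjusted p below 0.05 (median log2 fold change -0.049). The mitochondrial serine carrier Sfxn1 was listed at 0 in all 4 samples, and is named after its value was seen. As for Phgdh, whether the Sfxn1 value is a failed estimate was not tested. Its relative Sfxn3 stood at 32.0 ± 0.00948 and 36.0 ± 0.450 TPM (SD, n = 2, adjusted p = 0.16 in limma). The exchanger Slc1a4 was at 14.5 ± 2.15 and 13.2 ± 0.811 TPM, and serine racemase (Srr) at 18.5 ± 1.68 and 20.4 ± 0.0880 TPM.

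Glycolysis supplies the 3-phosphoglycerate from which serine is made. Of 6 tested glycolytic genes around it, 3 rose and none fell, beside 18.5% higher among all genes tested. The median log2 fold change was 0.27. Pyruvate kinase Pklr rose from 101 ± 0.429 to 153 ± 0.445 TPM, Eno2 from 32.9 ± 1.95 to 53.5 ± 5.01 TPM and Pkm from 415 ± 17.5 to 539 ± 34.6 TPM (SD, n = 2). In limma their adjusted p was 0.0045, 0.0090 and 0.019 in that order. The 3 that rose act below 3-phosphoglycerate, towards pyruvate. Pgk1, which makes 3-phosphoglycerate and is named after its values were seen, stood at 306 ± 8.93 and 367 ± 25.5 TPM. It was not called (adjusted p = 0.058 in limma), and all 6 fold changes were above 0.

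Downstream, purine synthesis, which takes up formyl units from folate, was lower for most of its genes. Of 13 tested, 9 fell, none rose and 4 were not called, beside 19.5% lower among all genes tested. The median log2 fold change was -0.27. Gart, which uses formyl-folate directly, fell from 33.3 ± 2.16 to 27.3 ± 0.107 TPM (SD, n = 2), Adss from 32.6 ± 1.60 to 25.4 ± 0.329 TPM and Adsl from 34.0 ± 1.74 to 27.5 ± 1.37 TPM. Their adjusted p in limma was 0.012, 0.0077 and 0.012. The count was 5 without scaling between samples, and 0 when either 3D sample was left out.

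Of 8 tested genes of the methionine cycle, 1 rose and 1 fell, beside 38.0% called among all genes tested. The median log2 fold change was -0.14. Ahcy, which hydrolyses S-adenosylhomocysteine, fell from 75.9 ± 1.51 to 52.0 ± 2.68 TPM (SD, n = 2, adjusted p = 0.0042 in limma). Mat2a, which makes S-adenosylmethionine, rose from 92.4 ± 8.33 to 138 ± 11.9 TPM (SD, n = 2, adjusted p = 0.0095 in limma). Mtrr, which keeps methionine synthase active, stood at 12.1 ± 1.28 and 10.3 ± 0.0724 TPM and was not called.

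**Figure D4:**
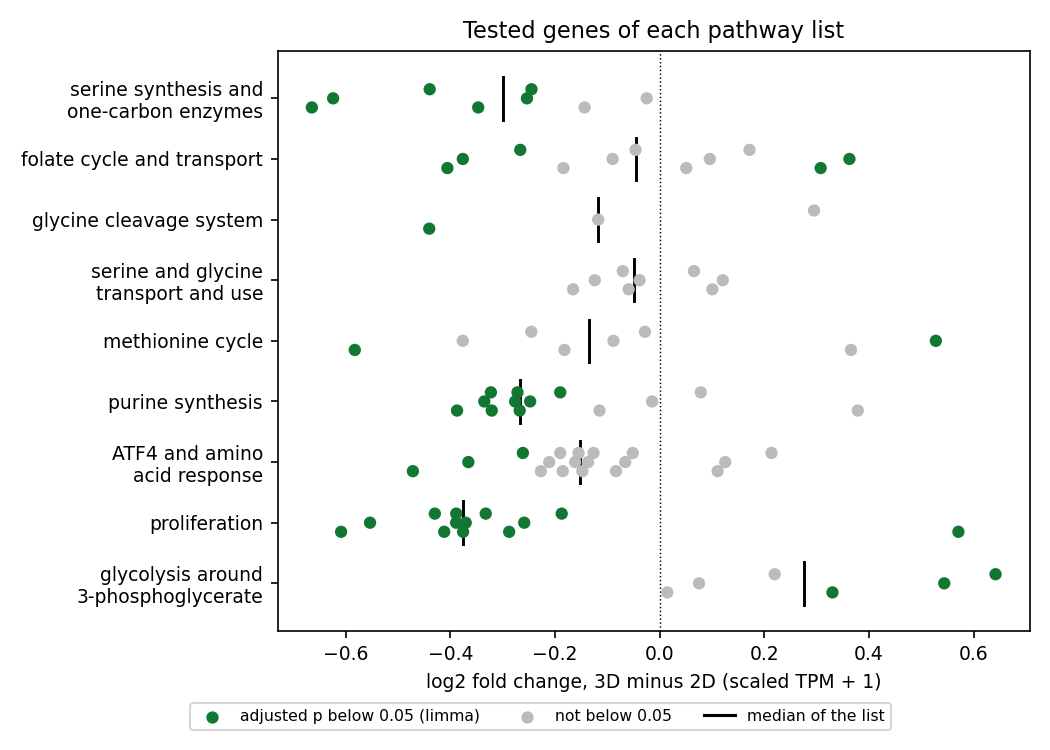
Log2 fold change, 3D minus 2D, of each tested gene (points, horizontal axis) by pathway list (rows), with the list's median as a black line. Green points had an adjusted p below 0.05 in limma. The medians run from -0.38 for proliferation to 0.27 for glycolysis, with the 8 enzymes at -0.30 and the purine list at -0.27.

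Atf4 is the transcription factor of the amino acid response that is known to drive serine synthesis genes, and Myc is another known activator. Atf4 was at 211 and 192 TPM in the monolayer cultures and at 192 and 185 TPM in the 3D cultures, with a log2 fold change of -0.14 that did not pass (95% interval -0.28 to 0.0097, adjusted p = 0.12 in limma). Of 18 tested genes of the ATF4 and amino acid response list, 3 fell and none rose (median -0.15), beside 19.5% lower among all genes tested. The 3 were the stress factor Ddit3, from 44.1 ± 0.204 to 32.5 ± 2.17 TPM, Nupr1, from 189 ± 5.20 to 151 ± 9.76 TPM, and Atf5, from 154 ± 7.11 to 132 ± 7.93 TPM (SD, n = 2). The count was 5 lower and 1 higher without 2D replicate 1, 1 lower without 3D replicate 2 and 0 without 3D replicate 1. It was 6 lower with scaling factors from all genes above 0, and 3 lower and 1 higher with the replicate block. Myc rose, from 46.8 and 44.3 TPM in monolayer to 75.3 and 65.4 TPM in 3D (log2 fold change 0.57, adjusted p = 0.0081 in limma).

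Proliferation genes moved with the enzymes. Of 13 tested, 12 fell and 1, Myc, rose, beside 19.5% lower among all genes tested. The median log2 fold change was -0.38. Mki67, a marker of cycling cells, fell from 50.9 ± 4.45 to 39.8 ± 1.87 TPM, and Pcna, the replication clamp, from 403 ± 2.56 to 312 ± 1.86 TPM (SD, n = 2, adjusted p = 0.010 and 0.0065 in limma). The replicative helicase subunits Mcm3 and Mcm5 had log2 fold changes of -0.61 and -0.43 and the mitotic kinase Cdk1 one of -0.55. The part of this change in the enzyme result was not tested. Without 3D replicate 1 none of the 12 falls was called, and without 3D replicate 2, 3 were.

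The label of the cells was checked against markers. Ins1 stood at 114003 to 137822 TPM and Slc2a2, the beta cell glucose transporter, at 454 to 654 TPM. Of 8 tested beta cell markers 1 rose (Slc2a2) and 1 fell (Ins2, whose reads can be shared with Ins1 and the added human insulin gene). Pdx1 was at 143 and 152 TPM in the monolayer cultures and at 129 and 131 TPM in the 3D cultures and was not called. Of 20 markers of other cell types in the tables, 8 were at 0 in all 4 samples, including the immune marker Ptprc, the endothelial Cdh5 and the acinar Prss1, and 4 were tested. Other immune and endothelial markers were above 0. The endothelial Kdr was at 0.965 and 1.00 TPM in monolayer and at 1.27 and 1.48 TPM in 3D (adjusted p = 0.20 in limma). Endothelial Vwf and immune Cd68 were above 0 in all 4 samples, and immune Lyz2 in the monolayer samples only. Gcg, the alpha cell hormone, rose from 57.9 ± 22.6 to 140 ± 22.0 TPM (SD, n = 2, adjusted p = 0.022 in limma). Ins1, the markers at 0, Kdr, Vwf, Cd68 and Lyz2 were named after their values were seen. The list of other cell types summed to 255 and 290 TPM in the monolayer cultures and to 307 and 369 TPM in the 3D cultures, of which Thy1 and Gcg made up nearly all. Their part in the enzyme result was not tested.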

How the data were processed

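Poly(A) RNA from 4 INS-1 832/3 cultures was sequenced as stranded single-end libraries. The authors checked reads with FastQC 0.11.8 and quantified transcripts with Salmon 1.2 (submitters' processing notes) on rn4 transcripts to which human insulin had been added. The deposited unit is TPM, written with decimal commas. TPM are normalised for transcript length, sum to 1e+06 per sample and keep no depth, so no counting interval can be given. The authors' own gene-level test needs counts and was not repeated.

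TPM were summed per symbol, and genes averaging 1 TPM or more were tested. Scaling between samples used trimmed means of M values, unweighted (trimming 30% of M and 5% of A from both ends, factors 0.960 to 1.02). Values of log2(TPM + 1) were tested with limma 3.58.1 (intensity trend, two-sided, Benjamini-Hochberg) in R 4.3.3. Fold changes on this scale understate those of low genes. Levels and ratios are TPM as deposited. The authors call the samples biological replicates. The p-values rest on the spread between 2 cultures per group, which limma draws towards a trend over all genes. No samples shared identical values.

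The members and lists were chosen with earlier results of these data known. Named genes are all members, the 3 genes of each list with the smallest p at a mean TPM of at least 10, Atf4, Myc, Mki67 and Pcna, and the 3 nearest patterns to Mthfd1. Some genes that meet this rule are not reported here. Genes outside it are marked in the text as named after their values were seen. Alternatives were the scaling, filter, pseudocount, variance model, replicate block, transcript choice, thresholds and each sample left out. Scaling from all genes above 0 was chosen after seeing the data. On simulated TPM in the layout of this comparison (12009 genes), 54.5% of 66 genes changed by 0.5 (log2) were called. The share was 80.6% of 67 changed by 0.75 and 98.5% of 67 changed by 1.5. Only these genes were changed, far fewer than the 4542 called in the data, so these rates do not carry over to it.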

Additional observations from a re-analysis of the deposited data

How the results depend on the processing

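Of the 4542 genes and 6 enzymes called with limma at an adjusted p below 0.05, 1418 genes and 3 enzymes passed an adjusted p below 0.01, and 1574 genes and 2 enzymes passed 0.05 with an absolute log2 fold change above 0.5. With each sample left out in turn, the counts ran from 136 to 4507 genes and from 0 to 6 enzymes. The lowest counts were those without 3D replicate 1, where one 3D sample is left and is assumed to vary like the monolayer samples, and 1037 genes and 2 enzymes were called without 3D replicate 2. The log2 fold change of Aldh1l2 ran from -0.16 to 0.11 with each sample left out, and turned positive without 3D replicate 1 (0.11) and without 2D replicate 2 (0.020), while those of the other 7 tested enzymes stayed negative under each alternative run. Under the other scalings, filters, pseudocount, variance models and transcript choice, 5 or 6 enzymes were called, 5 where Mthfd2 was lost. Of the list counts, 156 of 180 under these settings stayed within 1.5 times, and a smaller share did with a sample left out. Counts of 0 that stayed at 0 were taken as within this limit, which raises both shares. Without 3D replicate 1 no gene of the pathway lists or of the beta cell markers was called.

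The labels number the replicates 1 and 2 in both groups, but samples with the same number did not deviate together (correlation of deviations -0.0060 over 11960 genes), so the numbers were not taken as pairs. A fit with the replicate block called 4816 genes and the same number of enzymes, 6. TPM keep no depth, so the lowest values (Phgdh, Mthfd2l, Gldc) carry no detection limit.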
